A study of Mus musculus and blank sample with 91 samples.

Results

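Anaeroplasmataceae and Mycoplasmataceae are families of the class Mollicutes, bacteria without a cell wall. Their members here were the amplicon sequence variants (ASVs, the distinct sequences inferred from the reads) to which the deposited taxonomy gave either family name. There were 21 such ASVs of 2295 in all, 17 of them Anaeroplasmataceae and 4 Mycoplasmataceae, and these were 2 of the 26 families in the taxonomy. The counts of each family were summed in each fecal sample and divided by the sample's total, so that every percent below is a share of that sample's counts and not an amount of bacteria. The samples came from female C57BL/6J mice, 8 weeks old at purchase, in 3 groups with up to 6 mice at each time. Naïve mice were left untreated. CFA mice received Complete Freund's Adjuvant alone. EAE mice received the myelin oligodendrocyte glycoprotein peptide MOG35–55 in the same adjuvant, and pertussis toxin on days 0 and 2. EAE is experimental autoimmune encephalomyelitis, a mouse model of inflammatory demyelination with ascending paralysis, and the EAE mice differed from the CFA mice in both the peptide and, as far as the labels state, the toxin. Feces were taken at -2, 8, 14, 19 and 29 days relative to immunization (dpi). Mice lived in cages of 2 to 3 that shared a treatment, and cages were not named in the files, so cage and treatment cannot be told apart.

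Mollicutes are bounded by a membrane only, have small genomes and descend from Gram-positive ancestors near the Firmicutes. Without peptidoglycan they are insensitive to antibiotics that act on the wall. Anaeroplasma are strict anaerobes first grown from the rumen of cattle and sheep, and A. abactoclasticum is the species named for not lysing other bacteria. Mycoplasma live on the mucosal surfaces of vertebrates, many depend on sterols from the host, and several are pathogens of the airways or the urogenital tract.

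A total of 88 samples were used, after 1 CFA sample at 29 dpi with a total of 0 was left out, and the EAE group had 5 samples at 14 dpi. Totals ran from 9202 to 102437 counts, with a median of 64586. A share of 0 allows up to 3 counts of the total, which is between 0.00293% and 0.0326% depending on the sample, and this limit covers counting error only. The labels number the EAE mice anew from 14 dpi on. The deposited sample table keeps the earlier numbers for those 17 samples, and the text gives the label number.

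Each family was a single 16S insert in these mice. After the primer sequences, which the authors left on the reads, were set aside, the 17 Anaeroplasmataceae ASVs shared 1 insert of 408 bases named Anaeroplasma abactoclasticum. The 4 Mycoplasmataceae ASVs shared 1 insert of 427 bases named Mycoplasma CAG-877. The ASVs of each family therefore differed only at the ambiguous positions of the primers, and the family sum was also the count of 1 insert. The GC content was 48.3% for the Anaeroplasma insert and 48.7% for the Mycoplasma insert. Both values were near the low end of the 486 inserts in the study, which ran from 47.3% to 62.2% with a median of 53.2%.

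The inserts of the families were not close to each other. They were 76.3% identical, whereas the Anaeroplasma insert was 87.8% identical to its closest insert of Erysipelotrichaceae, a walled Firmicutes family regarded as a near relative of Mollicutes. The Mycoplasma insert was closest to RF39_UBA660, the third family of the phylum Tenericutes in the taxonomy and a group known mainly from sequences. It was between 84.1% and 84.8% identical to the 3 inserts of that family, which were between 86.4% and 89.3% identical to each other. Both the Mycoplasma species name and the RF39_UBA660 name carry the same placeholder, CAG-877. The family name Mycoplasmataceae is therefore used here as the taxonomy gives it, and the next closest family was Ruminococcaceae at 82.8%. All 24 ASVs of Tenericutes belonged to these 3 families.

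Anaeroplasmataceae were common but intermittent. They had counts in 43 of 88 samples and in all 18 mice at some day, and no mouse had them at every day. Where present, they had between 46 and 3230 counts, which was 0.0698% to 3.78% of the sample with a median of 0.898%. Of 64 pairs of consecutive samples from a mouse with the same label number, 18 had counts at both days, 15 at neither, 14 only at the later day and 17 only at the earlier day. The naïve mice varied in the same way, with 6 gains and 5 losses in 24 pairs. The limit that a count of 0 allows, at most 0.0326%, was below the lowest share seen in any sample with the family. The median total was 59267 in the 45 samples without counts and 68144 in the 43 with them. In EAE these medians were 47478 and 74342, further apart than in naïve mice, where they were 64219 and 66788. When every sample was thinned to 9202 counts, all 43 samples still had counts of the family. The thinning acted on the finished ASV counts. It could not show whether the family was missed when ASVs were inferred in samples with few reads.

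**Figure D1:**
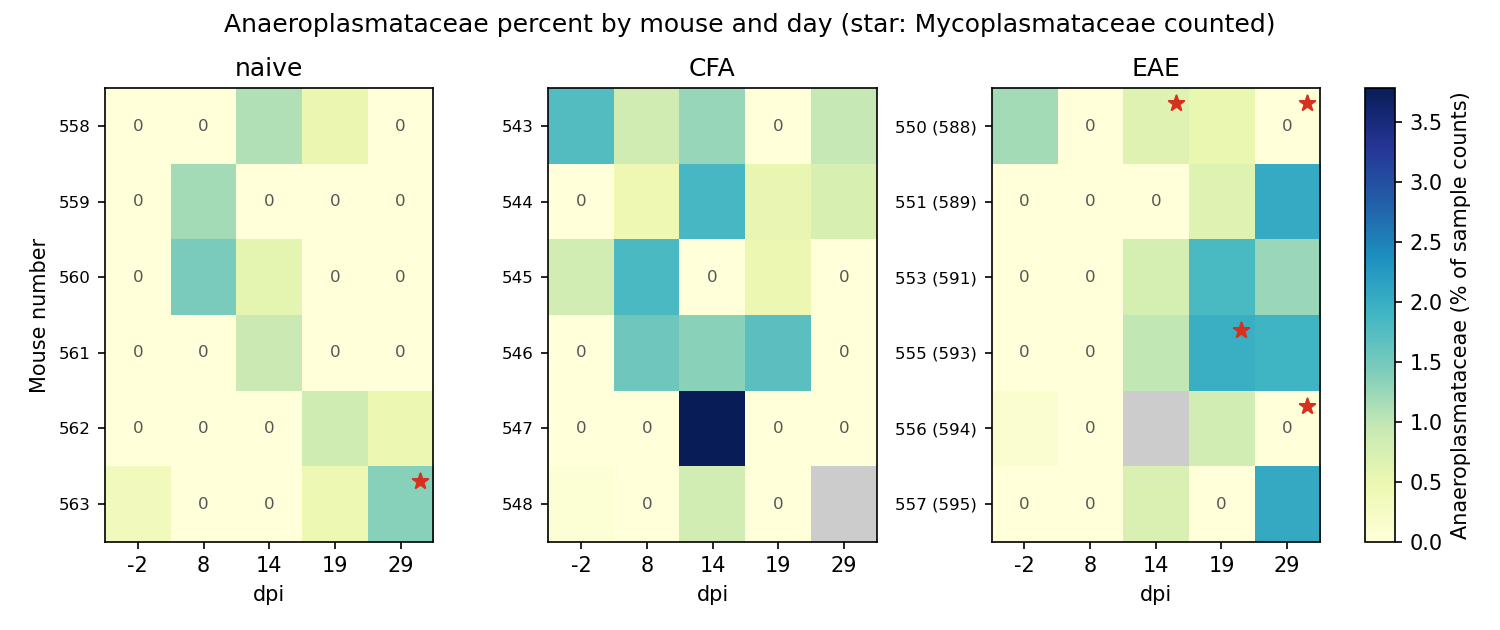
Each cell is a fecal sample, with mice as rows and days relative to immunization (dpi) as columns, and its colour gives the percent of counts that were Anaeroplasmataceae. Cells marked 0 had no count, grey cells had no sample or no counts at all, stars mark the 5 samples with Mycoplasmataceae counts, and numbers in brackets are the label numbers of EAE mice from 14 dpi on. No row is filled at every day, and the EAE column at 8 dpi is at 0 throughout.

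Before immunization Anaeroplasmataceae were present in 1 of 6 naïve, 3 of 6 CFA and 2 of 6 EAE mice. Naïve mouse 563 had 0.340%. CFA mice 543, 545 and 548 had 1.75%, 0.811% and 0.0698%. EAE mice 550 and 556 had 1.17% and 0.122%. The groups overlapped, and the means were 0.0566% ± 0.139 in naïve, 0.439% ± 0.717 in CFA and 0.215% ± 0.469 in EAE (SD, n = 6 each). By edgeR's quasi-likelihood test with Benjamini-Hochberg adjustment over the families tested, no pair of groups differed in the family at -2 dpi (lowest adjusted p = 0.527), when 0% of families were called between EAE and naïve and 8.70% both between EAE and CFA and between CFA and naïve. Without naïve mouse 563, which left no naïve mouse with the family, CFA and naïve were called different before immunization (edgeR adjusted p = 0.0369).

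At 8 dpi, before the paralysis that marks the model, Anaeroplasmataceae had no count in any of the 6 EAE mice. The EAE samples had 9202, 17439, 46272, 48685, 54765 and 56057 counts, so that the limit a count of 0 allows lay between 0.00535% and 0.0326%. Mouse 555, with 9202 counts, held 4 ASVs, none of them under 1147 counts, and mouse 551, with 17439, held 22. The other EAE samples held 83 to 116 ASVs. The limit covers counting error only, and a loss of low counts when ASVs were inferred was not tested. In CFA mice the family was present in 4 of 6, at 0.453%, 0.833%, 1.55% and 1.81%. In naïve mice it was present in 2 of 6, at 1.17% and 1.46%. The EAE group thus lay at the bottom of both other groups but overlapped with the mice that had no count in them. The mean was 0.773% ± 0.771 in CFA and 0.438% ± 0.685 in naïve (SD, n = 6), which is at least 63.3-fold and 35.8-fold higher than an EAE mean with 3 counts in each sample. These bounds take 3 counts as the limit in every EAE sample, also in those with few ASVs. The bound against naïve rests on 2 mice and was 19.1-fold without naïve mouse 560, and the bound against CFA was 46.4-fold without CFA mouse 545.

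The edgeR fit called the EAE mice lower at 8 dpi than the CFA mice (adjusted p = 0.0117) and than the naïve mice (adjusted p = 0.0301, Benjamini-Hochberg). It called 39.1% and 17.4% of all families in these comparisons. Tests that do not model counts did not call either difference. With EAE at 0 throughout, both tests below depend only on how many mice of the other group had counts, not on their shares. With these numbers of mice neither test could pass 0.05, so they cannot decide the question. The exact permutation test of the mean percent gave p = 0.0606 against CFA (adjusted p = 0.216) and p = 0.455 against naïve (adjusted p = 0.720), and Fisher's exact test of the number of mice with counts gave p = 0.0606 and p = 0.455, all two-sided. With the mouse number as a replicate block, in which the change since -2 dpi is compared, edgeR's adjusted p was 0.594 against CFA and 0.250 against naïve, and 0.346 and 0.0731 with the numbers of the sample table. The call against naïve was also lost when the EAE sample with 9202 counts was left out of the fit (adjusted p = 0.0555), or when EAE mouse 550, 551, 555 or 556 was left out (0.0629, 0.0587, 0.0583 and 0.0533). The call against CFA held when any mouse was left out, with adjusted p between 0.00925 and 0.0219. Both calls held in edgeR with total counts alone (adjusted p = 0.0118 against CFA and 0.0291 against naïve) and without the filter (0.0130 and 0.0342). DESeq2 also gave both, with adjusted p of 1.44e-21 and 5.94e-19. Error rates of these fits for families this sparse were not measured. CFA and naïve mice were not called different at 8 dpi (log2 fold change 1.22, SE 2.46, adjusted p = 1.00 by edgeR), where 21.7% of families were.

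**Figure D2:**
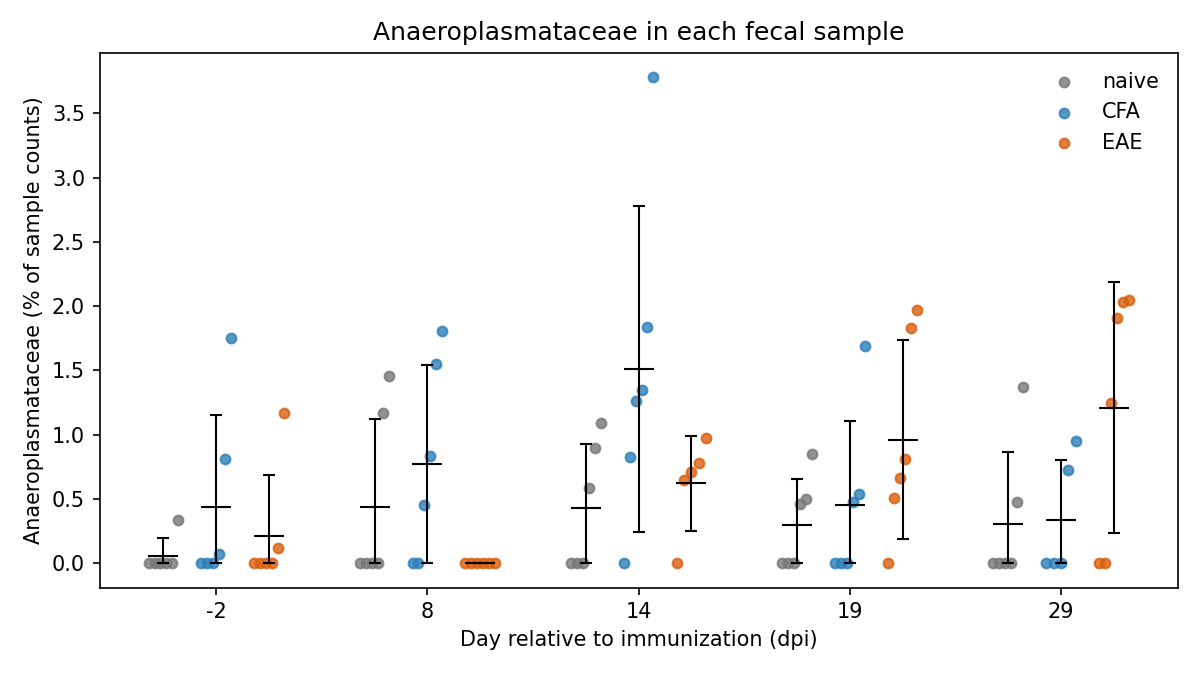
Anaeroplasmataceae as a percent of sample counts (vertical axis) at each day relative to immunization, with a point for each sample and a bar with whiskers for the mean and 1 SD of a group, the whiskers ending at 0. All 6 EAE samples are at 0 at 8 dpi, and the highest sample is a CFA mouse at 14 dpi with 3.78%.

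From 14 dpi on, when clinical signs began, the family was found in most EAE samples. It had counts in 13 of 17 EAE samples at 14, 19 and 29 dpi, in 10 of 17 CFA samples and in 8 of 18 naïve samples. In EAE mice 588, 591, 593 and 595 it made up 0.645%, 0.781%, 0.977% and 0.710% at 14 dpi, and mouse 589 had none. At 19 dpi mice 588, 589, 591, 593 and 594 had 0.504%, 0.664%, 1.83%, 1.97% and 0.809%, and mouse 595 had none. At 29 dpi mice 589, 591, 593 and 595 had 2.03%, 1.25%, 1.91% and 2.05%, and mice 588 and 594 had none. Mice 591 and 593 were thus the EAE mice with the family at all 3 of these days. Of the samples without it, mouse 589 at 14 dpi had 17326 counts in 37 ASVs and mouse 595 at 19 dpi 15279 counts in 25. Mice 588 and 594 at 29 dpi had 76374 counts in 99 ASVs and 97275 counts in 132. A loss of low counts when ASVs were inferred was not tested.

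The CFA mean was highest at 14 dpi. Mice 543, 544, 546, 547 and 548 had 1.26%, 1.84%, 1.35%, 3.78% and 0.826%, and only mouse 545 had none. At 19 dpi 3 of 6 CFA mice had the family, at 0.477%, 0.538% and 1.69%, and at 29 dpi 2 of 5 did, at 0.728% and 0.949%. Mouse 547, with the highest value of the study at 14 dpi, had no count at any other day. The naïve mice with the family had 0.587%, 0.898% and 1.09% at 14 dpi. Their values at 19 dpi were 0.465%, 0.497% and 0.847%, and those at 29 dpi were 0.475% and 1.37%. The naïve and CFA values overlapped with those of EAE at each of these days.

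At 14, 19 and 29 dpi the EAE means were 0.623% ± 0.369 (SD, n = 5), 0.962% ± 0.775 and 1.21% ± 0.978 (SD, n = 6). The naïve means were 0.430% ± 0.498, 0.301% ± 0.356 and 0.308% ± 0.554 (SD, n = 6). The CFA means were 1.51% ± 1.27 and 0.450% ± 0.655 (SD, n = 6), and 0.335% ± 0.466 (SD, n = 5). None of these day-by-day differences passed edgeR's test. The log2 fold change of EAE over naïve was 0.24, 0.65 and 1.86 at these days, with SEs of 2.54, 2.44 and 2.51. Of EAE over CFA it was -1.32, 0.41 and 1.16, with SEs of 2.62, 2.43 and 2.61. Of CFA over naïve it was 1.56, 0.24 and 0.71, with SEs of 2.49, 2.43 and 2.54. At these days edgeR called 13.0%, 26.1% and 26.1% of families between EAE and naïve, 56.5%, 30.4% and 26.1% between EAE and CFA, and 17.4%, 13.0% and 8.70% between CFA and naïve. The lowest adjusted p for the family among these 9 comparisons was 0.587.

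Averaging the 3 days in each mouse gave a mean of 0.918% ± 0.485 in EAE, 0.770% ± 0.418 in CFA and 0.346% ± 0.227 in naïve mice (SD, n = 6 mice each). The EAE mice had 0.383%, 0.404%, 0.898%, 0.918%, 1.29% and 1.62%. The CFA mice had 0.159%, 0.413%, 0.738%, 1.01%, 1.04% and 1.26%, and the naïve mice had 0, 0.196%, 0.299%, 0.440%, 0.530% and 0.612%. The 4 highest EAE mice were above every naïve mouse, as were the CFA mice with 0.738%, 1.01%, 1.04% and 1.26%. The other EAE and CFA mice lay within the naïve range. EAE exceeded naïve by 0.571 percentage points, for which the two-sided exact permutation test over mice gave p = 0.0281 and an adjusted p of 0.0675 over all families, of which 33.3% were called. The difference passed the threshold without EAE mouse 588 (0.678 points, adjusted p = 0.0325) or 594 (0.674 points, adjusted p = 0.0390), and with no other mouse left out. CFA exceeded naïve by 0.424 points (exact permutation p = 0.0584, adjusted p = 0.199, with 13.0% of families called). EAE exceeded CFA by 0.148 points (exact permutation p = 0.574, adjusted p = 0.765, with 37.5% called). Leaving out single mice moved that difference between 0.00798 points, without EAE mouse 593, and 0.255 points, without EAE mouse 588. It was 0.0256, 0.0764 and 0.246 points without CFA mice 545, 548 and 547 and 0.0741 and 0.250 points without EAE mice 591 and 594. As a percent of the counts other than Lactobacillaceae it was -0.114 points (exact permutation, adjusted p = 0.891). On that scale EAE exceeded naïve by 0.459 points (exact permutation, adjusted p = 0.156). Mean Lactobacillaceae shares at 14, 19 and 29 dpi were 1.14%, 1.60% and 2.61% in EAE and 30.7%, 22.7% and 31.8% in naïve mice.

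**Figure D3:**
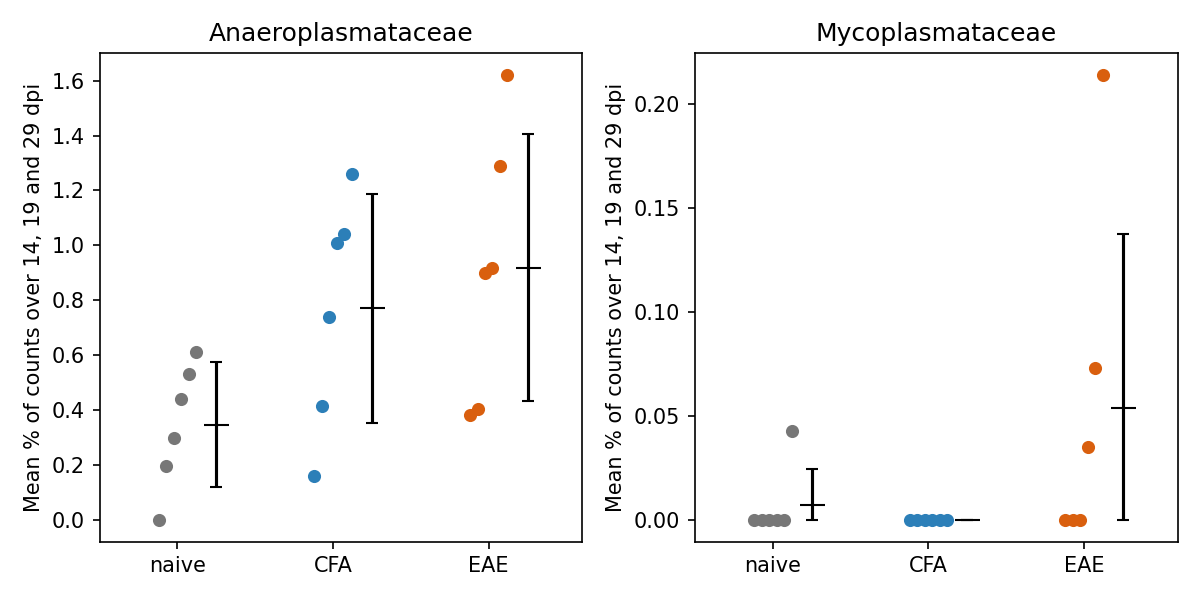
Mean percent of counts over 14, 19 and 29 dpi in each mouse for Anaeroplasmataceae (left) and Mycoplasmataceae (right), with a point for each mouse and, beside the points, the group mean and 1 SD with whiskers ending at 0. For Anaeroplasmataceae 4 EAE mice and 4 CFA mice lie above all naïve mice, and for Mycoplasmataceae all CFA mice are at 0.

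The number of mice with the family at any of these 3 days was 6 of 6 in EAE, 6 of 6 in CFA and 5 of 6 in naïve mice. Fisher's exact test gave p = 1.00 for each pair of groups, and the share of families it called was 8.33% between EAE and naïve, 16.7% between EAE and CFA and 4.35% between CFA and naïve. Naïve mouse 559, the exception, had the family at 8 dpi alone.

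Within each group, no day was called different from -2 dpi for Anaeroplasmataceae by edgeR in 12 comparisons, of which 1, EAE at 8 dpi, had an unadjusted p under 0.05 (adjusted p = 0.0803). DESeq2 called that decrease, from 2 of 6 mice with the family to none, with an adjusted p of 3.39e-18. The paired exact sign-flip permutation test of the same change gave p = 0.500 (adjusted p = 0.692). Only 2 mice changed, both downward, which fixes that p whatever the size of the change. With a replicate block, edgeR's adjusted p for it was 0.477 with label numbers and 0.280 with subject numbers. The log2 fold change since -2 dpi was between 2.08 and 2.94 in naïve mice, between -0.42 and 1.29 in CFA mice, and 1.18, 1.45 and 1.95 at 14, 19 and 29 dpi in EAE mice, with SEs of 2.43 to 2.61. The naïve values rest on a single mouse with the family at -2 dpi. The paired change in percent, by the exact sign-flip permutation test over mice with the same label number, did not pass in any of 9 comparisons (lowest adjusted p = 0.396). The smallest p that this exact permutation test allows with 6 mice is 0.0312, and it is higher with the 5 CFA pairs at 29 dpi. After adjustment over families, this test could pass only with many families at its smallest p, so not passing says little about change. Its largest mean change was 1.07 points, in CFA mice at 14 dpi (exact permutation p = 0.188).

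The clinical score, a rating of paralysis by the authors, was set beside the family in the EAE mice. At 14 dpi the mice with scores of 0, 591 and 593, had 0.781% and 0.977%, mouse 588 with a score of 1 had 0.645%, and mice 589 and 595 with scores of 3 and 3.5 had 0 and 0.710%. At 19 dpi mouse 591, with a score of 0, had 1.83%, mice 588 and 589, with scores of 2, had 0.504% and 0.664%, mouse 595, with a score of 3.5, had no count, and mice 593 and 594, with scores of 4, had 1.97% and 0.809%. At 29 dpi the mice without the family, 588 and 594, had scores of 2.75 and 3.5, and the mice with it had scores of 2.25 to 3.75. Over the 3 days, the 13 EAE samples with the family had scores from 0 to 4 and the 4 samples without it had scores from 2.75 to 3.5. Of the samples without it, those of mouse 589 at 14 dpi and mouse 595 at 19 dpi had only 17326 and 15279 counts. The EAE samples come from 6 mice measured repeatedly, and no test was run on them.

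Mycoplasmataceae were rare, with 827 counts in all, in 5 of 88 samples and 4 of 18 mice. EAE mouse 588 had 282 counts at 14 dpi (0.337%) and 232 counts at 29 dpi (0.304%). EAE mouse 593 had 54 counts at 19 dpi (0.104%), EAE mouse 594 had 142 counts at 29 dpi (0.146%), and naïve mouse 563 had 117 counts at 29 dpi (0.128%). All of these samples were from 14 dpi or later, none of the 18 samples at -2 dpi and none of the 29 CFA samples had a count, and no mouse had the family in consecutive samples. The 5 samples had a median total of 83684 against 64065 in the other 83, although the sample of EAE mouse 593 had 51770. After thinning of the finished ASV counts to 9202, all 5 still had counts of the family, which does not address losses when ASVs were inferred.

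By edgeR the family was called higher in EAE than in CFA mice at 14 dpi (adjusted p = 0.0351), in a comparison where 56.5% of all families were called. That call rested on mouse 588 alone, at 282 counts, against no count in 6 CFA mice. The group mean of 0.0674% ± 0.151 (SD, n = 5) was at least 15.2-fold higher than a CFA mean with 3 counts in each sample. Without mouse 588 the adjusted p was 1.00, without any CFA mouse in turn it was between 0.0523 and 0.0589, and with the subject number as a replicate block it was 1.00. The exact permutation test of the same values gave p = 0.455 (adjusted p = 0.526). With 1 mouse with counts against none, that p is the same whatever the mouse's share. RF39_UBA660 was called in the same comparison (edgeR adjusted p = 0.0357) with 67 counts in a single EAE mouse, 591. Its adjusted p was 0.968 with the subject number as a replicate block, and the call held in 4 of 9 fits that left out a mouse, with a highest adjusted p of 0.0601. These fits do not include the one without mouse 591. Without that mouse the family had counts in fewer than 3 samples and was not tested.

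No other comparison of Mycoplasmataceae between groups passed edgeR's test. Of 7 comparisons, 5 had an unadjusted p under 0.05 by edgeR, each with the family in 1 or 2 samples of a group and none in the other. Over mice, 3 of 6 EAE, 0 of 6 CFA and 1 of 6 naïve mice had the family at 14, 19 or 29 dpi. Fisher's exact test gave p = 0.182 between EAE and CFA, p = 0.545 between EAE and naïve and p = 1.00 between CFA and naïve. The mean percent per mouse was 0.0536% ± 0.0836 for the EAE group and 0.00709% ± 0.0174 for the naïve group (SD, n = 6 each), and the exact permutation test gave p = 0.303 between them and p = 0.182 between EAE and CFA. With CFA at 0, the latter p depends only on the number of EAE mice with counts. Mouse 588 carried most of the EAE mean, at 0.214% per mouse. Without it EAE minus naïve fell from 0.0465 to 0.0145 points and EAE minus CFA from 0.0536 to 0.0216 points.

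Anaeroplasmataceae and Mycoplasmataceae were found together in 3 samples, EAE mouse 588 at 14 dpi, EAE mouse 593 at 19 dpi and naïve mouse 563 at 29 dpi. In the other samples with Mycoplasmataceae, EAE mice 588 and 594 at 29 dpi, Anaeroplasmataceae had no count. Neither family was found in 43 samples. RF39_UBA660 added 103 counts in 3 further samples, 67 in EAE mouse 591 at 14 dpi, 28 in CFA mouse 543 at -2 dpi and 8 in naïve mouse 562 at 29 dpi. All 3 samples held Anaeroplasmataceae, and none held Mycoplasmataceae.

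Erysipelotrichaceae, the walled relative, followed another course. It had counts in 81 of 88 samples and 15.9% of all counts, against 0.601% for Anaeroplasmataceae and 0.0147% for Mycoplasmataceae. It was at 0.441% ± 0.421 in CFA mice at 8 dpi, against 17.7% ± 15.4 in naïve and 9.36% ± 9.73 in EAE mice (SD, n = 6). EdgeR called it lower in CFA than in naïve mice (log2 fold change -5.78, SE 1.52, adjusted p = 0.00214) and higher in EAE than in CFA mice (4.05, SE 1.40, adjusted p = 0.0186). Neither call held with a replicate block, where edgeR's adjusted p was 0.305 and 0.778 with label numbers and 0.252 and 0.214 with subject numbers. In edgeR fits of the compared groups alone it was 0.0424 and 0.206, and the exact permutation test gave adjusted p of 0.0206 and 0.216. Within CFA mice edgeR called the fall from -2 to 8 dpi (adjusted p = 0.0114). That call held with a block (edgeR adjusted p = 0.00965 with label and 0.00684 with subject numbers). The sign-flip test of the fall did not pass (adjusted p = 0.148). At 8 dpi Anaeroplasmataceae were instead at 0 in EAE and present in CFA mice. At 14 dpi the CFA mean was 1.16% ± 1.43 for Erysipelotrichaceae and 1.51% ± 1.27 for Anaeroplasmataceae (SD, n = 6). Over mice at 14 to 29 dpi Erysipelotrichaceae exceeded naïve by 16.0 points in EAE (exact permutation p = 0.0108, adjusted p = 0.0325).

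Among families with counts in at least 10 samples, those whose percent most resembled that of Anaeroplasmataceae over the 88 samples were Oscillospiraceae (Spearman's rank correlation 0.400), Clostridiales_vadinBB60 (0.354) and Lachnospiraceae (0.308). For Mycoplasmataceae they were Peptococcaceae (0.294), Clostridiaceae (0.275) and Peptostreptococcaceae (0.272). These are weak relations over samples that share mice and totals, they have many values at 0, and they are given as a description only.

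The primer variants of Anaeroplasmataceae were few in any sample. Of the 43 samples with the family, 24 held 1 variant of the insert, 15 held 2 and 4 held 3, and the 5 samples with Mycoplasmataceae held 1 each. A single variant was found in 9 of 11 naïve, 8 of 17 CFA and 7 of 15 EAE samples with Anaeroplasmataceae. The median count of the family was 463.5 with 1 variant, 1018 with 2 and 847 with 3. In all 19 samples with more than 1 variant, the variants shared the form of the reverse primer and differed in the form of the forward primer. Among the other inserts at 46 to 3230 counts, 78.8% of 2981 insert and sample pairs held 1 variant, and 551 of the 633 with more (87.0%) shared the reverse form. The commonest of the 17 ASVs occurred in 9 samples and 4 occurred in 1 sample each, so a single ASV of the family, unlike the family sum, was absent from most samples that held the bacterium.

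**Figure D4:**
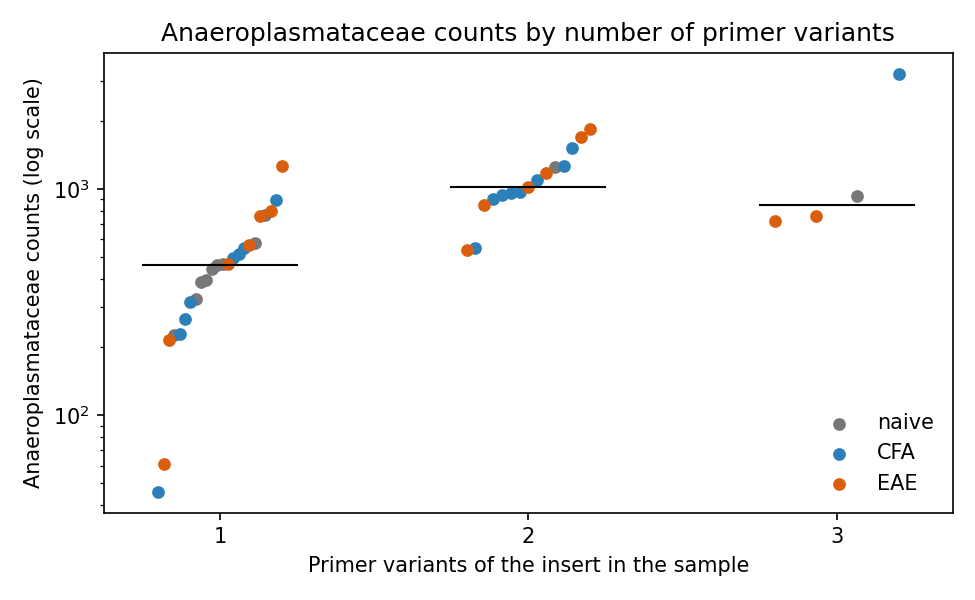
Anaeroplasmataceae counts of a sample (vertical axis, log scale) by the number of primer variants of the insert found in it, with a point for each of the 43 samples with counts, coloured by group, and a line at the median. All groups appear among samples with 1 and 2 variants, and the sample with the highest count, 3230, held 3.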

How the data were processed

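Fecal 16S rRNA genes (regions V3 and V4) of naïve, CFA and EAE mice were sequenced. The authors inferred ASVs with DADA2, removed chimeras, named ASVs from a curated comparison of several databases, and deposited ASV counts as raw counts per sample, together with clinical scores, which the authors deposited as a score on a scale of paralysis. Versions are not given in the sources used here. Water controls were not analysed here. The members and lists were chosen with earlier results of these data known. They comprised both families, RF39_UBA660, Erysipelotrichaceae, Lactobacillaceae as a denominator, and the 3 families of highest Spearman rank correlation among those with counts in at least 10 samples.

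Family counts were tested with edgeR 4.0.16 (R 4.3.3; quasi-likelihood, TMMwsp factors from genus counts, 15 groups of treatment and day, families with counts in at least 3 samples) and adjusted by Benjamini-Hochberg, threshold 0.05. The SE of a log2 fold change was taken as its absolute value divided by the square root of the test's F statistic. Fold changes that fit a group at 0 depend on the prior count and are not given. In their place, a mean with 3 counts in every sample of the group at 0 gave a bound. Percents were tested with exact permutation and sign-flip tests, and presence (at least 1 count) with Fisher's exact test, all two-sided and adjusted over the families with counts in the comparison (Python 3.11.15, SciPy 1.17.1). The code was tested on simulated data. For edgeR these had less spread than the families here, whose fitted dispersions were 9.6 (Anaeroplasmataceae) and 32 (Mycoplasmataceae). Error rates for such sparse families were not measured. Inserts were aligned with Biopython 1.88. Totals of 9202 to 102437 counts set the precision. Mouse numbers of the labels pair samples of the same animal, except in EAE mice after 8 dpi, and the sample table's subject numbers pair all. The alternatives were DESeq2 1.42.0, total counts, no filter, the compared groups alone, replicate blocks, other denominators and scales, minimum counts, thinning and leaving out mice. Samples are repeated draws from 18 mice, and treating them as separate at each day leaves the spread between cages unmeasured.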

Additional observations from a re-analysis of the deposited data

Results flagged for a closer look

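Of 23 sets of values of the families tested for an outlying sample (Dixon's test, groups of 4 to 10), 9 held a sample that stood apart. Most of the 9 were groups in which the family was counted in 1 or 2 samples and the others were at 0. A single sample above 0 always stands apart by this test, so a chance rate of about 1 in 20 does not apply here.

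For Anaeroplasmataceae these were naïve mouse 563 at -2 dpi with 0.340%, the same mouse at 29 dpi with 1.37%, CFA mouse 546 at 19 dpi with 1.69% and EAE mouse 550 at -2 dpi with 1.17%. For Mycoplasmataceae they were naïve mouse 563 at 29 dpi with 0.128%, EAE mouse 588 at 14 dpi with 0.337% and EAE mouse 593 at 19 dpi with 0.104%. The mean over 14, 19 and 29 dpi of Mycoplasmataceae stood apart in naïve mouse 563 with 0.0426% and in EAE mouse 588 with 0.214%.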

How the results depend on the processing

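The number of days after immunization at which edgeR called a family was the least stable value. For Anaeroplasmataceae it was 1 of 4 between EAE and naïve and 1 of 4 between EAE and CFA. With a replicate block it was 0 in both, for the label numbers at 8 dpi alone and for the subject numbers at all days. Without the sample of the lowest total it was 0 between EAE and naïve. Leaving out each mouse gave 0 to 1 between EAE and naïve and 1 throughout between EAE and CFA. For Mycoplasmataceae it was 1 between EAE and CFA and 0 between the other pairs. DESeq2 gave 3 between EAE and CFA, 2 between EAE and naïve and 1 between CFA and naïve, the replicate block with subject numbers gave 0 between EAE and CFA, and leaving out each mouse gave 0 to 1 there. The cause was not tested.

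The difference in mean percent of Anaeroplasmataceae per mouse was 0.432 to 0.678 points between EAE and naïve on leaving out each mouse (adjusted p = 0.125 and 0.0325 by exact permutation at these ends). Between EAE and CFA it reversed to -0.114 without Lactobacillaceae in the denominator, and so did the mean percent of EAE minus naïve at 14 dpi, to -0.0677. The number of mice with counts changed no call under any minimum count or thinning.

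Values for single days that were not called also changed sign. In edgeR with a replicate block (change since -2 dpi), the log2 difference of CFA over naïve was -10.39, -5.22, -6.79 and -3.84 at 8, 14, 19 and 29 dpi with label numbers and -10.43, -5.25, -6.81 and -3.84 with subject numbers, EAE over naïve was -7.60 and -2.68 at 14 and 19 dpi, and CFA at 8 dpi over -2 dpi was -0.32 with both. These rest on few samples above 0. With total counts, CFA at 19 dpi over -2 dpi was 0.04. On leaving out each mouse, edgeR's log2 fold change ranged from -0.16 to 1.66, -1.52 to 1.14 and -1.18 to 0.33 for CFA at 8, 19 and 29 dpi over -2 dpi, from -0.85 to 1.09 and -0.18 to 2.33 for CFA over naïve at 19 and 29 dpi, from -0.06 to 1.50 for EAE over CFA at 19 dpi, and from -1.08 to 10.33 and -0.03 to 0.63 for EAE over naïve at -2 and 14 dpi. The mean percent difference ranged from -0.0985 to 0.258 and -0.126 to 0.240 for CFA minus naïve at 19 and 29 dpi, from -0.414 to 0.0386 for EAE minus CFA at -2 dpi and from -0.0323 to 0.215 for EAE minus naïve at -2 dpi. Sign and call were kept by 403 single-day values and 105 values over days. With the sign kept, 12 single-day values came to pass the threshold and 8 no longer passed it. Cage means were not run, since cages are not named in the sample table. Counting error alone limits a count of 0 to shares of up to 0.0326%.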

Other observations

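The counts of Anaeroplasmataceae had a gap above 0. The lowest count of the family in a sample that held it was 46, whereas the lowest count of any ASV in a sample had a median of 3 over the 88 samples. The lowest count of Mycoplasmataceae was 54, and the counts of RF39_UBA660 were 8, 28 and 67. The median of 3 is of a minimum over all ASVs of a sample, which is low by construction. The comparison therefore does not show that the gap is particular to these families, and no test was run on it.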
